A study of Mus musculus with 8 samples.

Results

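Among the distal sites of reprogramming fibroblasts that carried NANOG and BRG1 peaks whether the cells received NanogWT or NanogBiD, 1414 of 11711 had a lower NANOG signal with NanogBiD. They were selected on FLAG heights by a fixed rule. Overlapping or touching FLAG and BRG1 peaks of both arms were merged, and a merged region was kept when it held a peak of each of the 4 lists, when its tallest NanogBiD FLAG summit lay over 2 kb from any annotated start site, and when its tallest NanogWT FLAG summit was at least 1.5 times as tall as that of NanogBiD. The lower FLAG height is therefore a description of the rule, with no test. Of the other distal common regions, 8048 had steady NANOG, with a ratio under 1.5 in either direction, and 2249 had raised NANOG, at least 1.5 times taller in NanogBiD. The series held 93352 merged FLAG and BRG1 regions in all.

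The libraries were made by CUT&Tag, in which an antibody guides a transposase to its target so that the DNA beside it is cut and tagged for sequencing. Mouse embryonic fibroblasts (MEFs), the labelled cell type, were taken at day 5 of reprogramming after infection with retroviruses for Oct4 together with either Nanog (NanogWT) or NanogN70. The latter label is taken here to be the study's NanogBiD, a fusion of the BRG1-interacting domain of SS18 to the start of NANOG, an inference from the length of that domain. Each arm had 1 library for the FLAG tag on NANOG and 1 each for BRG1, H3K27ac and H3K4me1, which makes 8 libraries. Both arms were infected with the Oct4 retrovirus. Per the study's methods, the cells of both came from embryos of OG2 mice, which hold an Oct4-GFP reporter, crossed to 129 mice. The factors were driven by a retroviral vector, pMXs, and their levels were not measured here, the cultures were bulk cultures in which only some cells reprogram, and there was no arm without Nanog. Replicates were merged before deposition, and how many went into each of these libraries is not given in the sources used here beyond a general statement that experiments were repeated, so no difference between arms could be set against the spread between cultures, and no test between arms was made.

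NANOG is a homeodomain transcription factor of pluripotent cells that works with OCT4 and SOX2. BRG1 is the ATPase of the BAF complex, which slides and evicts nucleosomes, and SS18 is a subunit of that complex. Distal enhancers carry H3K4me1 when primed or active and H3K27ac when active, and in fibroblasts many of them are held open by AP-1, TEAD and RUNX factors.

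The sequences under some of these summits are shown first, because matches to the motifs of fibroblast and pluripotency factors were later counted in the same windows. Each line gives 101 bp centred on the tallest NanogWT FLAG summit, plus strand of mm10, with every match to a searched consensus on either strand in capitals. Kcnq5 (chr1:21805181-21805281) and Ndst3 (chr3:123771263-123771363) were the members with the tallest NanogWT FLAG summits among those with an OCT octamer. Lcmt1 (chr7:123405703-123405803) and Dnajb9 (chr12:43827295-43827395) were the tallest with an AP-1 match, and Fbxo8 (chr8:56615027-56615127) was among the tallest with a TEAD match. Myo18b (chr5:112852986-112853086) had the tallest FLAG summit of all members and no match. Mctp2 (chr7:72726120-72726220) and Foxf2 (chr13:31683306-31683406) had the largest FLAG ratio, 4. Cdc73 (chr1:143477027-143477127) and Cobl (chr11:12871056-12871156) were among the members with the highest ratio of BRG1 in NanogBiD to NanogWT, and Abcb10 (chr8:123999789-123999889) had one of the tallest H3K27ac peaks that were missing in NanogBiD.
Kcnq5: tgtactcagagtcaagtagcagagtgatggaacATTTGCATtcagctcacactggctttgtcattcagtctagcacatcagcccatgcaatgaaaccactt
Ndst3: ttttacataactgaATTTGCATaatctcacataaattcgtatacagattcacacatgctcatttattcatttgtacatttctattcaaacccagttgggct
Lcmt1: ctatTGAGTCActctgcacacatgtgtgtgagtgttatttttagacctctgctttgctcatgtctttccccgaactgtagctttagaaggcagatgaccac
Dnajb9: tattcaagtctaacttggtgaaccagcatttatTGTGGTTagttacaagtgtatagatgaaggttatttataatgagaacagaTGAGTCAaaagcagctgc
Fbxo8: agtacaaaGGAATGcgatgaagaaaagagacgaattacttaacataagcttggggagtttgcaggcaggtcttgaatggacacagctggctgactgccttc
Myo18b: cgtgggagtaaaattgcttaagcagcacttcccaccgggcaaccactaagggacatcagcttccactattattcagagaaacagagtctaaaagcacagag
Mctp2: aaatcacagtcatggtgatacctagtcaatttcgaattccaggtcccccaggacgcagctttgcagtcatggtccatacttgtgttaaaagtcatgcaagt
Foxf2: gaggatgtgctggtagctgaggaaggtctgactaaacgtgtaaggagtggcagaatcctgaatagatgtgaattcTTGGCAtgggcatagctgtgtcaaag
Cdc73: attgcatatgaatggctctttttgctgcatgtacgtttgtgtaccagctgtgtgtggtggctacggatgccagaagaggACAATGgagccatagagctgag
Cobl: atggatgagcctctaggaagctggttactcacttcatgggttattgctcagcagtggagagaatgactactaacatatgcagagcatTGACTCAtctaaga
Abcb10: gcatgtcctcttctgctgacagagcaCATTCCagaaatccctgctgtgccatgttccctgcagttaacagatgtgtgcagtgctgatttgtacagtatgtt
The match is an octamer at Kcnq5 and Ndst3, AP-1 at Lcmt1 and Cobl, AP-1 with RUNX at Dnajb9, TEAD at Fbxo8 and Abcb10, NFI at Foxf2 and SOX at Cdc73. A match describes the letters and does not show that a factor was bound.

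The lists held between 30859 and 74782 peaks, the lowest peak score was 50 in each, and the number of sequenced tags is not known. Heights are tag pileups at summits and were not scaled to depth. H3K27ac peaks lay within 2 kb of the start sites of 7 of 8 fibroblast marker genes in each arm, among them Col1a1, Thy1 and Pdgfra, while Prrx1 had none in either arm. Of 12 markers of blood, endothelium and epithelium, 0 had such a peak in NanogWT and 4 had one in NanogBiD, Ptprc at 24 tags, Cdh5 and Krt8 at 11 and Kdr at 10. Their part in the results was not tested.

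Lowered NANOG was more frequent at distal sites than at promoters. The background of the rule was 12.1% of distal common regions, against 4.42% (458 of 10369) of common regions within 2 kb of a start site, with a 95% Wilson interval of 4.04 to 4.83. Wilson intervals here cover counting error only and not the variation between cultures. A bulk signal cannot tell fewer cells with a bound site from weaker binding in each cell.

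The rule chose members on both FLAG heights, so they were tall in NanogWT and low in NanogBiD beside other distal common regions. Their tallest FLAG summits in NanogWT ran from 12 to 92 tags with a median of 28.5, and in NanogBiD from 7 to 58 with a median of 15. Over all distal common regions the medians were 21 and 22 tags, with a lower quartile of 16.5 in NanogBiD. The median over all FLAG peaks of the list was 14 tags in NanogWT and 15 in NanogBiD. For steady regions the medians were 22 in both arms. The median ratio at the members was 1.72, or -0.78 as log2 of NanogBiD over NanogWT, against 0.09 for all distal common regions. The ratio lay between 1.5 and 2 at 1050 members, between 2 and 2.5 at 278 and at 2.5 or more at 86. At 117 members it was exactly 1.5, with NanogWT heights from 12 to 72, and the nearest region outside had 58 and 39 tags, so the class has no natural edge.

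**Figure D1:**
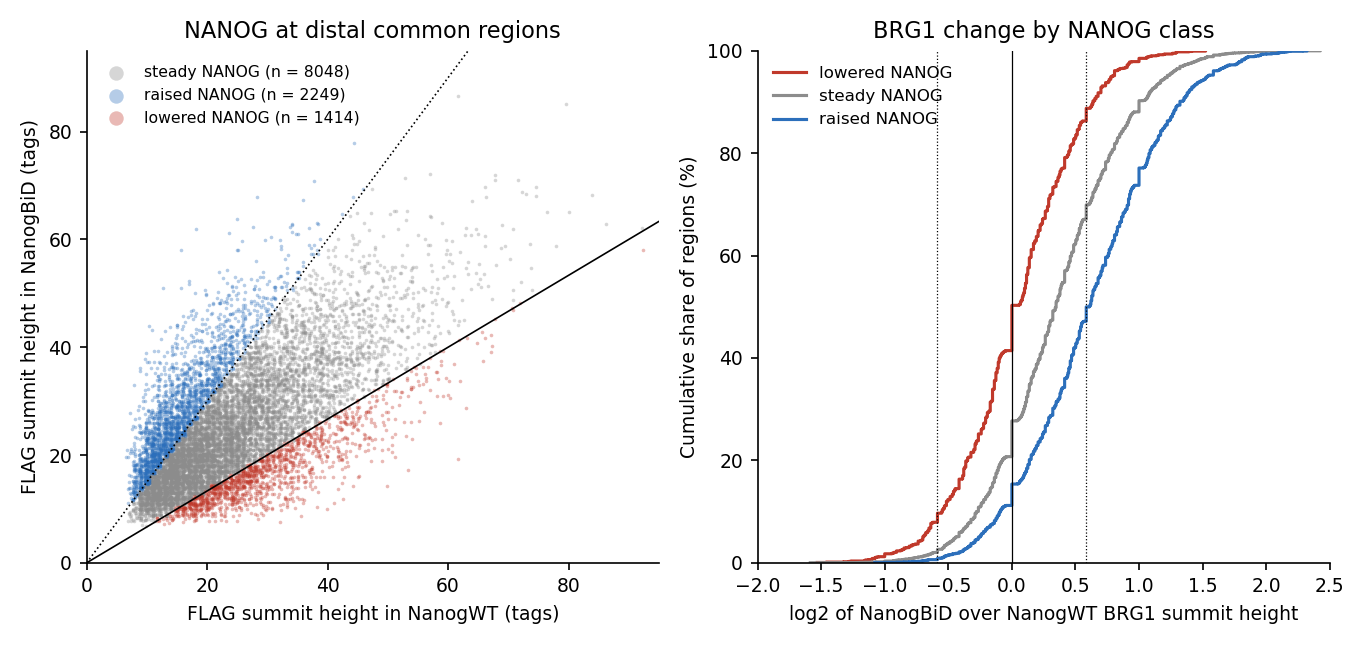
Left, tallest FLAG summit height in tags, NanogWT on the horizontal and NanogBiD on the vertical axis, 1 point per distal common region with a small jitter; the solid line is the ratio of 1.5 that defines the 1414 regions with lowered NANOG and the dotted line its mirror. Right, cumulative share of regions in each class against log2 of NanogBiD over NanogWT BRG1 height, with dotted lines at a factor of 1.5 in each direction; the curve of regions with lowered NANOG lies to the left, with its median at 0.00 against 0.35 for steady regions.

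The tallest members were large sites where NANOG remained abundant in both arms. An intronic site of Myo18b (chr5:112848474-112855160), a gene for an unconventional myosin, had FLAG heights of 92 tags in NanogWT and 58 in NanogBiD. The site nearest Slc14a2 (chr18:78668843-78672459), a urea transporter gene, had 72 and 48 tags. Sites near Htr1b (chr9:81624804-81628641), a serotonin receptor gene, and Wdr45b (chr11:121365995-121368397), an autophagy gene, both had 71 and 47, and one upstream of Trpm3 (chr19:22080008-22083164), a cation channel gene, had 68 and 45. BRG1 was taller in NanogBiD at each of these 5, with 34 and 46 tags at Myo18b, 29 and 45 at Slc14a2, 24 and 36 at Htr1b, 24 and 38 at Wdr45b, and 24 and 33 at Trpm3. The NANOG direction at these sites is that of the rule, and BRG1 was also taller in NanogBiD at steady regions of like height, with a median log2 change of 0.71 at a mean of 45 tags and over. Regions are named by the nearest protein-coding start site, which does not show that the gene is their target, and some of these start sites are distant.

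The 5 largest NANOG ratios were found at sites above the members' median height in NanogWT and below it in NanogBiD. FLAG heights were 40 tags in NanogWT and 10 in NanogBiD at a site 420 kb upstream of Mctp2, 32 and 8 near Psmd7 (chr8:107694631-107696112), which encodes a proteasome subunit, and 36 and 9 downstream of Foxf2 (chr13:31681320-31684115), a forkhead factor of mesenchyme. An intron of Ptprn2 (chr12:116958681-116960418) had 38 and 10 tags, and a site 434 kb upstream of Apob (chr12:7542039-7544239), the gene of the main protein of low-density lipoprotein, had 41 and 11. BRG1 was lower in NanogBiD at each of the 5. It went from 18 tags to 10 at Foxf2, where H3K27ac was 24 tags in NanogWT and had no peak in NanogBiD, from 17 to 13 at Psmd7 and from 19 to 14 at Apob. At Mctp2 and Ptprn2 it differed by 1 tag, with 12 and 11 and with 13 and 12, which is within the steps of the scale.

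Of BRG1 the rule used only the presence of a peak in each arm, not its height. Tallest BRG1 summits had a median of 12 tags in NanogWT and 13 in NanogBiD at the members, against 13 and 17 at steady and 12 and 19 at raised regions. The median log2 change was 0.00 (interval of the median 0.00 to 0.09), while it was 0.35 (0.32 to 0.35) at steady and 0.61 (0.58 to 0.63) at raised regions. BRG1 was taller in NanogWT at 586 members, taller in NanogBiD at 703 and equal at 125. BRG1 at the members was thus about as tall in NanogBiD as in NanogWT, while most other distal sites had more of it in NanogBiD.

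Whether this is read as unchanged or as lower depends on what is taken as no change. The median BRG1 change over all distal common regions was 0.35, and relative to it the members stood at -0.35. Over common regions near start sites the median was 0.00, and relative to these the members stood at 0.00. BRG1 was lower by at least 1.5 times at 137 members, 9.69% (8.25 to 11.3), against a background of 3.15%, and higher by as much at 194, 13.7% (12 to 15.6), against 34.4%. With lists cut to an equal length of 20000 peaks by score, the class held 339 regions, BRG1 was that much lower at 2.06% of them, and its median change was 0.25, against 0.50 at steady regions. After division by the median ratio of distal common regions, 26% of members were lower (23.8 to 28.4) against a background of 12.2%, and 2.19% higher (1.55 to 3.10) against 14.6%. Depth was not known, so the choice between these scales cannot be made from the lists. Both divide every region by 1 constant, so the order of the class medians is the same on either.

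The BRG1 change also followed the height of the site, so the classes were compared at like heights. In 5 ranges of the mean FLAG height of both arms, the median BRG1 change at members went from -0.13 under 15 tags to 0.42 at 45 tags and over, and at steady regions from 0.00 to 0.71. Members lay below steady regions in each of the 5 ranges. Between 20 and 30 tags BRG1 was lower by at least 1.5 times at 8.98% of 590 members (6.93 to 11.6) and at 1.10% of 2811 steady regions (0.778 to 1.56). At 45 tags and over 0 of 39 members and 0 of 377 steady regions were that low. Members with the largest FLAG ratios had the lowest BRG1: the median change was 0.10 where the FLAG ratio was under 2, 0.00 between 2 and 2.5, and -0.30 at 2.5 and over, where BRG1 was lower by at least 1.5 times at 27.9% of 86 members (19.5 to 38.2).

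**Figure D2:**
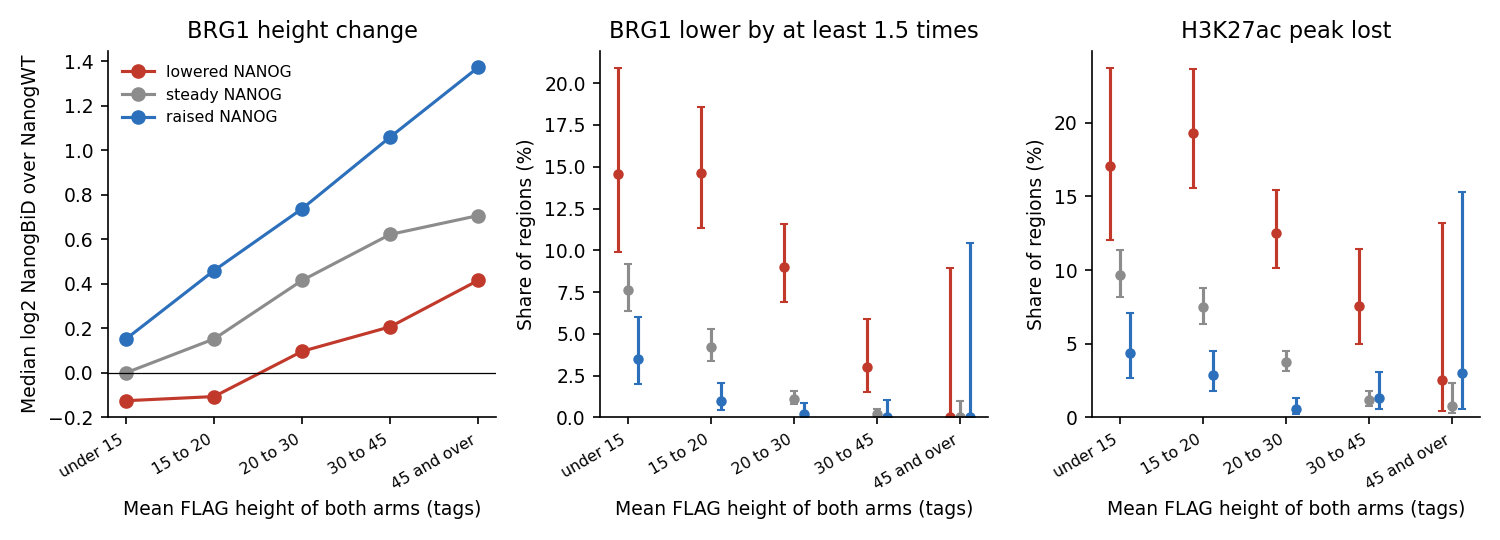
Distal common regions split by mean FLAG height of both arms (horizontal axis, tags) and NANOG class. The panels show the median log2 BRG1 change, the share of regions with BRG1 lower by at least 1.5 times and the share that lost an H3K27ac peak, the shares with 95% Wilson bars; below 45 tags the regions with lowered NANOG have the lowest median BRG1 change and the largest shares, and at 45 tags and over only 39 of them remain.

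Across the members the change in FLAG and the change in BRG1 were weakly related, with a Spearman coefficient of 0.19 over 1414 regions. It was 0.17 over steady regions and 0.32 over all distal common regions, where the FLAG change was not cut to a range. The coefficient of BRG1 with H3K27ac change was 0.33 over the 1034 members with H3K27ac peaks in both arms, 0.40 over steady and 0.46 over raised regions. Within an arm, FLAG and BRG1 heights at the members had a coefficient of 0.43 in NanogWT and 0.71 in NanogBiD, against 0.42 and 0.84 at steady and 0.31 and 0.82 at raised regions. These are descriptions across sites that share their libraries and local chromatin, and the rule narrows the range of the FLAG change.

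The members where BRG1 differed most held sites of both directions. The lowest BRG1 change was at Nanog itself, with 26 tags in NanogWT and 9 in NanogBiD, where FLAG was 30 and 12, H3K27ac 47 and 20, and H3K4me1 23 and without a peak. This region (chr6:122712887-122713703) covered the coding part of the last Nanog exon (chr6:122713142-122713552), a sequence that the retroviral transgenes carry too. Across the gene, the 8 lists held 11 peaks, 7 with summits in this exon and 4, all of NanogWT, in the second coding exon (chr6:122711538-122711803), and 0 with a summit in an intron. Reads from the transgene and from the endogenous exons cannot be told apart, so the region says nothing of occupancy at the endogenous gene. It is 1 member, and without it BRG1 was lower by at least 1.5 times at 136 of 1413.

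The next lowest BRG1 changes were at sites in which the other targets were lower as well. An intronic site of Celsr1 (chr15:85911475-85912927), a planar cell polarity cadherin gene, had BRG1 at 22 tags in NanogWT against 8 in NanogBiD, and FLAG at 28 and 13 and H3K27ac at 32 and 15. A site downstream of Tcf7l2 (chr19:55952912-55954184), which encodes a Wnt effector, had BRG1 at 20 and 8, FLAG at 18 and 12 and H3K27ac at 29 and 17. Near Vldlr (chr19:27259683-27261058), a lipoprotein receptor gene, BRG1 was 17 and 7 and H3K27ac 20 and 13. Upstream of Btg1 (chr10:96570743-96571775), an antiproliferative gene, BRG1 was 24 and 10, FLAG 23 and 8 and H3K27ac 29 and 21. H3K4me1 was lower in NanogBiD at all 4, most at Btg1 with 25 and 13 tags. All of these sites kept peaks of the 4 targets in both arms.

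At the other end, BRG1 was more than doubled while NANOG was lower. A site far downstream of Cdc73, which encodes a subunit of the PAF1 transcription elongation complex, had BRG1 at 8 tags in NanogWT against 23 in NanogBiD, and FLAG at 33 and 19. In an intron of Sgcd, nearest to Timd4 (chr11:46995261-46997629), BRG1 was 12 and 32 and FLAG 57 and 32. At a site 406 kb upstream of Cobl, an actin nucleator gene, BRG1 was 8 and 21 and FLAG 38 and 21. Near Cep85l (chr10:53260001-53261907) and in an intron of Grip1 (chr10:119690501-119693071), BRG1 was 11 and 27 at both, with FLAG at 35 and 23 and at 48 and 29. Marks at these 5 did not move together: H3K27ac was slightly taller in NanogBiD at Cdc73, Timd4 and Cep85l, lower at Grip1, with 28 and 19 tags, and without a peak in either arm at Cobl.

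**Figure D3:**
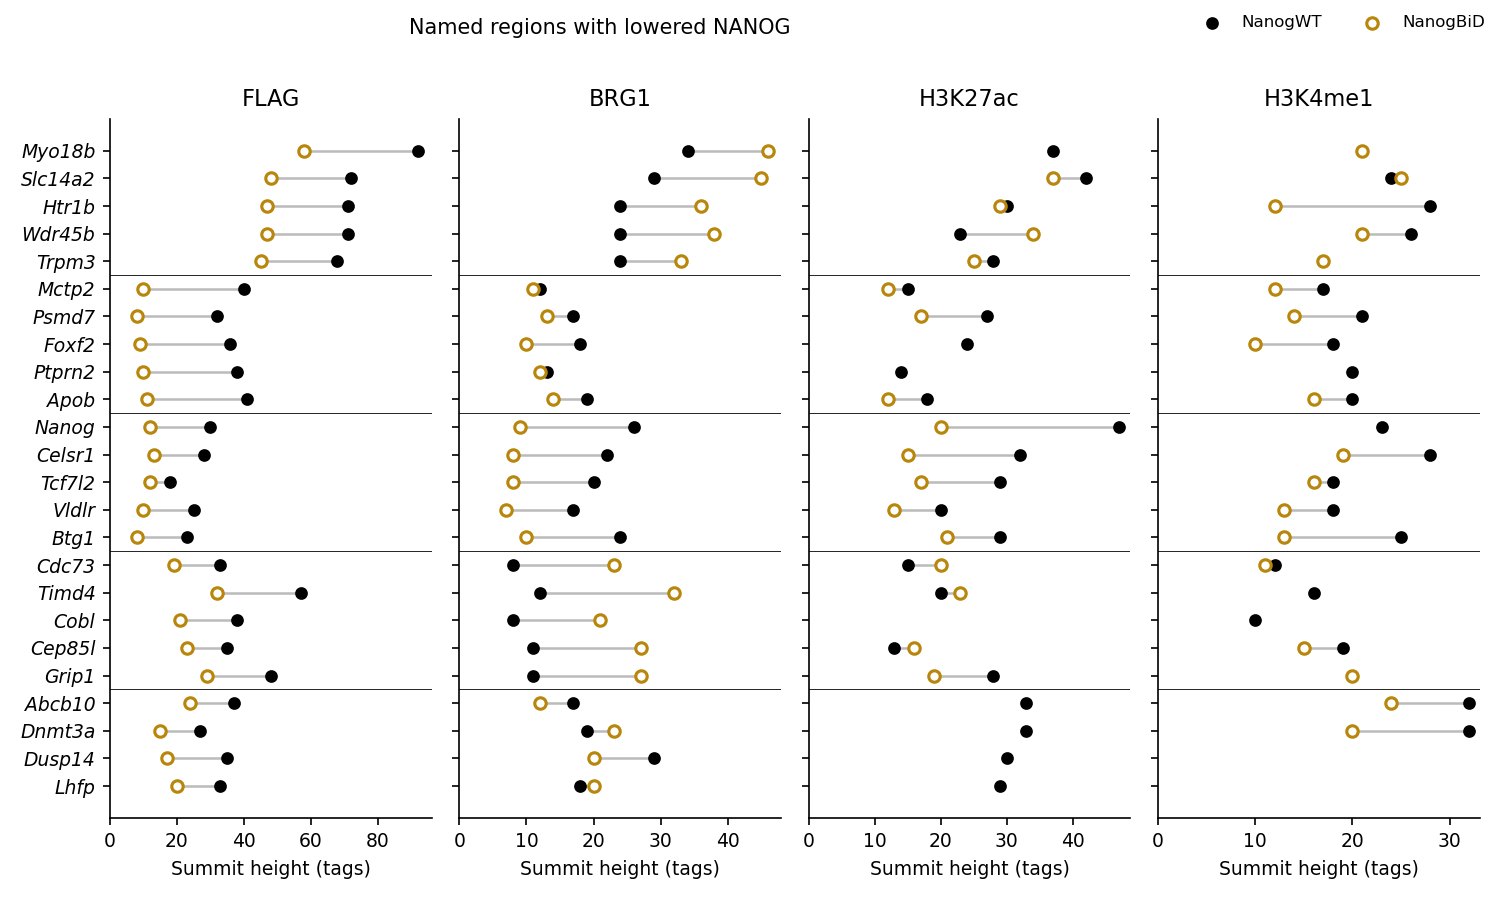
Summit heights in tags in each of the 8 libraries for the named regions with lowered NANOG, NanogWT as filled and NanogBiD as open circles, joined where both arms had a peak; a missing circle means no peak in that list. Lines separate the 5 tallest NanogWT FLAG summits, the 5 largest FLAG ratios, the 5 lowest and the 5 highest BRG1 changes and the tallest lost H3K27ac peaks; BRG1 is taller in NanogBiD in the first and the fourth block and shorter in the second and the third.

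H3K27ac, the mark of active enhancers, was weaker at the members in NanogBiD. It had peaks in both arms at 1034 members (73.1%), in NanogWT only at 192, 13.6% (11.9 to 15.5) against a background of 5.36%, and in NanogBiD only at 80, 5.66% (4.57 to 6.99) against 12.7%. At steady regions the shares were 4.87% and 11.2%, and at raised regions 1.96% and 22.5%. The median H3K27ac height was 17 tags over the 1226 members with a NanogWT peak and 15 over the 1114 with a NanogBiD peak. Where both arms had one, the median log2 change was -0.21 (-0.23 to -0.17), against 0.08 for all distal common regions. H3K27ac was lower by at least 1.5 times at 187 of these 1034 members, 18.1% (15.9 to 20.5) with a background of 5.36% of 8718 regions, and higher at 19, 1.84% (1.18 to 2.85) with a background of 12.8%.

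H3K4me1, the mark of primed and active enhancers, had lower heights in NanogBiD at distal common regions of all classes and somewhat more so at the members. The H3K4me1 list was longer in NanogWT, with 72242 peaks against 57156, and depth was not known. A fall shared by all classes therefore cannot be told from a difference between the libraries. An H3K4me1 peak was lost from 288 members, 20.4% (18.4 to 22.5) against a background of 14.0%, and gained at 54, 3.82% (2.94 to 4.95) against 5.97%. Of the 900 members with peaks in both arms, 219 were lower by at least 1.5 times, 24.3% (21.6 to 27.2) against 13.7%, and 3 were higher, 0.333% (0.113 to 0.975) against 1.03%. The median log2 change was -0.35 at the members, -0.22 at steady and -0.14 at raised regions. Relative to all distal common regions, whose median was -0.22, the members differed by less for H3K4me1 than for H3K27ac.

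**Figure D4:**
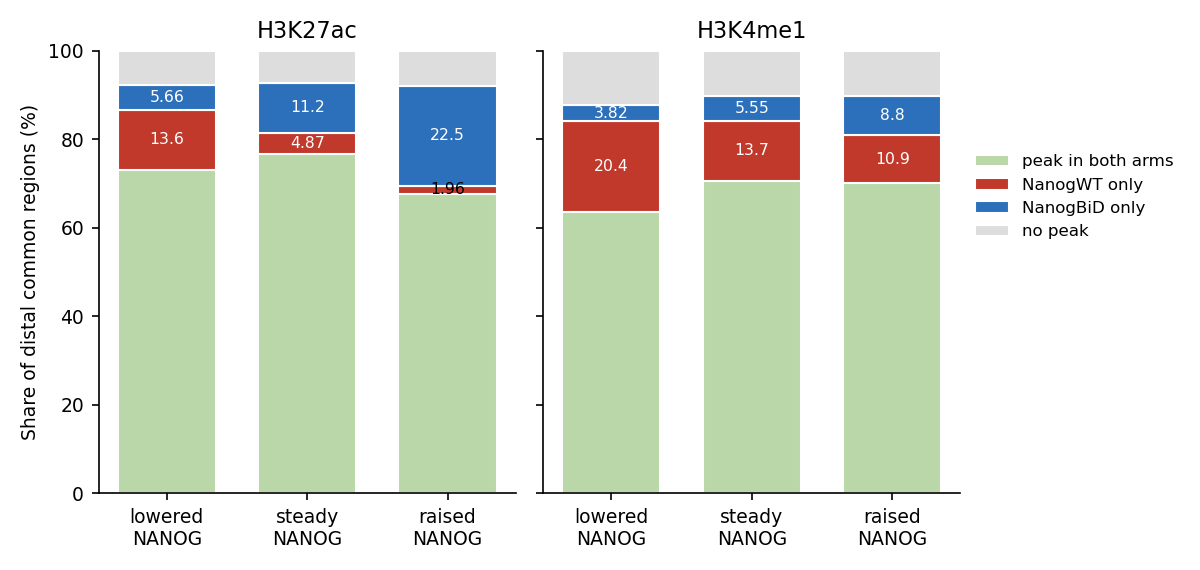
Share of distal common regions (vertical axis, percent) with an H3K27ac or H3K4me1 peak in both arms, in NanogWT only, in NanogBiD only or in neither, by NANOG class. H3K27ac peaks found in NanogWT only make up 13.6% of regions with lowered NANOG, 4.87% of steady and 1.96% of raised ones, and the order of the NanogBiD-only share is the reverse.

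The tallest H3K27ac peaks that members lost show what the word covers. The intronic Myo18b site had 37 tags in NanogWT and no peak in NanogBiD, while its BRG1 was taller in NanogBiD, and the nearest NanogBiD H3K27ac peak was 21.8 kb away. Sites near Abcb10, a mitochondrial transporter gene, and in an intron of Dnmt3a (chr12:3887141-3888578), the gene of a de novo DNA methyltransferase, each had 33 tags in NanogWT, and their nearest NanogBiD peaks were 6.08 and 2.13 kb away. At Dusp14 (chr11:84070578-84074933), a phosphatase gene, with 30 tags in NanogWT, the nearest NanogBiD peak was 1.02 kb away, and at Lhfp (chr3:53204036-53207259), with 29 tags, it was 1.28 kb away. The score of the lost peak was 87 at Myo18b, 120 at Abcb10, 122 at Dnmt3a, 52.7 at Dusp14 and 126 at Lhfp, where the lists begin at 50. Over all 192 members that lost H3K27ac, the median score in NanogWT was 96.9 and the median height 14 tags, against 162 and 18 where the mark was kept. A peak missing from a list was not called, which does not mean that the mark was absent.

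A peak of NanogBiD lay within 2 kb of 9 of these 192 members, 4.69%, and the median distance to the nearest was 17.1 kb. At steady regions that lost H3K27ac the median distance was 11 kb, and 10.5% had such a peak within 2 kb. Of the lost peaks, 52.1% had scores under 100 at the members and 71.9% at steady regions.

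The median H3K27ac change at the members was lower where BRG1 was lower, while the shares that lost the peak had overlapping intervals. Of the 137 members with BRG1 lower by at least 1.5 times, 26 lost H3K27ac, 19.0% (13.3 to 26.4), and 2 gained it. Of the 194 with BRG1 higher by as much, 20 lost it, 10.3% (6.77 to 15.4), and 22 gained it. The median H3K27ac change covers only members with a peak of the mark in both arms. It was -0.39 over 99 members of the first group, -0.22 over 797 of the 1083 members between, and 0.00 over 138 of the second group. With NANOG steady the 3 groups, limited in the same way, had medians of -0.24, 0.00 and 0.25, each above that of the members in the same group. The loss of H3K4me1 did not follow BRG1, with 19.7%, 20.9% and 18.0% of members. H3K27ac was lost or lower by at least 1.5 times at 379 members, 26.8% (24.6 to 29.2) against a background of 9.35%, and BRG1 was lower as well at 57 of them, 4.03% of members (3.12 to 5.19) against 0.931%. At 641 members, 45.3% (42.8 to 47.9), neither BRG1 nor a mark was lost or lower by that factor, against 69.3% of all distal common regions.

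The motifs in the windows shown above were then counted over all members and set beside the other classes. AP-1, the FOS and JUN dimers of fibroblast enhancers, was searched as TGACTCA, and 75 members had a match, 5.30% (4.25 to 6.60). This was less than at steady regions, 9.69% (9.06 to 10.4), at raised regions, 15.3% (13.9 to 16.9), and over all distal common regions, 10.2%. In windows of the same size 1 kb downstream the shares were 1.77%, 1.64% and 2.27%. Centred on the NanogBiD summit, they were 5.87%, 11.3% and 19.9%. The order held in each range of height, with 6.14% of members and 9.75% of steady regions under a mean of 20 tags, 4.58% and 9.93% from 20 to 30, and 5.28% and 9.29% above. AP-1 matches were thus about as frequent at members of low as of high NANOG.

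In percentage points the other motifs differed less. TEAD, searched as GGAATG, was found at 9.26% of members (7.86 to 10.9), 8.14% of steady (7.56 to 8.76) and 6.18% of raised regions (5.26 to 7.25), with 6.08%, 5.49% and 5.51% downstream. The OCT octamer ATGCAAAT was found at 38 members, 2.69% (1.96 to 3.67), and at 2.32% of steady and 2.05% of raised regions, against 0.990% of members downstream. SOX, as ACAATG, was found at 6.65% of members and 7.98% of steady regions, the homeodomain core TAATGG used for NANOG at 5.09% and 5.31%, RUNX, as TGTGGTT, at 3.18% and 3.68%, and NFI, as TGCCAA, at 7.07% and 5.98%. For these 4 the intervals of members and steady regions overlap. GATA, as AGATAA, was found at 3.89% of members, 4.42% of steady and 4.14% of raised regions, and was more frequent downstream in each class, at 7.14%, 5.83% and 5.91%. The composite OCT-SOX site, which holds 7 bases of the octamer, was found at 1 member, against 0.179% of all distal common regions. The CTCF site and the CRE TGACGTCA were found at 0 of 1414 members, which allows a share of up to 0.212% by a limit of 3 counts and up to 0.271% by the Wilson interval, against 0.248% and 0.188% of all distal common regions. Centred on the NanogBiD summit, they were found at 4 members and at 1, against 0.418% and 0.299% of all distal common regions. Within 100 bp of the NanogWT summit, CTCF was found at 0.141% of members (0.0388 to 0.514), 0.621% of steady and 1.33% of raised regions (0.936 to 1.90). CRE was found there at 0 members (up to 0.271%) and at 0.534% of steady regions (0.397 to 0.719). CEBP, as TTGCGCAA, was found at 1 member and at 5 of all 11711 regions, and ETS, as CCGGAAG, at 5 members, 0.354% (0.151 to 0.825), against 0.671% of steady and 0.889% of raised regions. KLF, as GGGTGTG, was found at 26 members, 1.84% (1.26 to 2.68), and at 2.31% of steady regions.

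**Figure D5:**
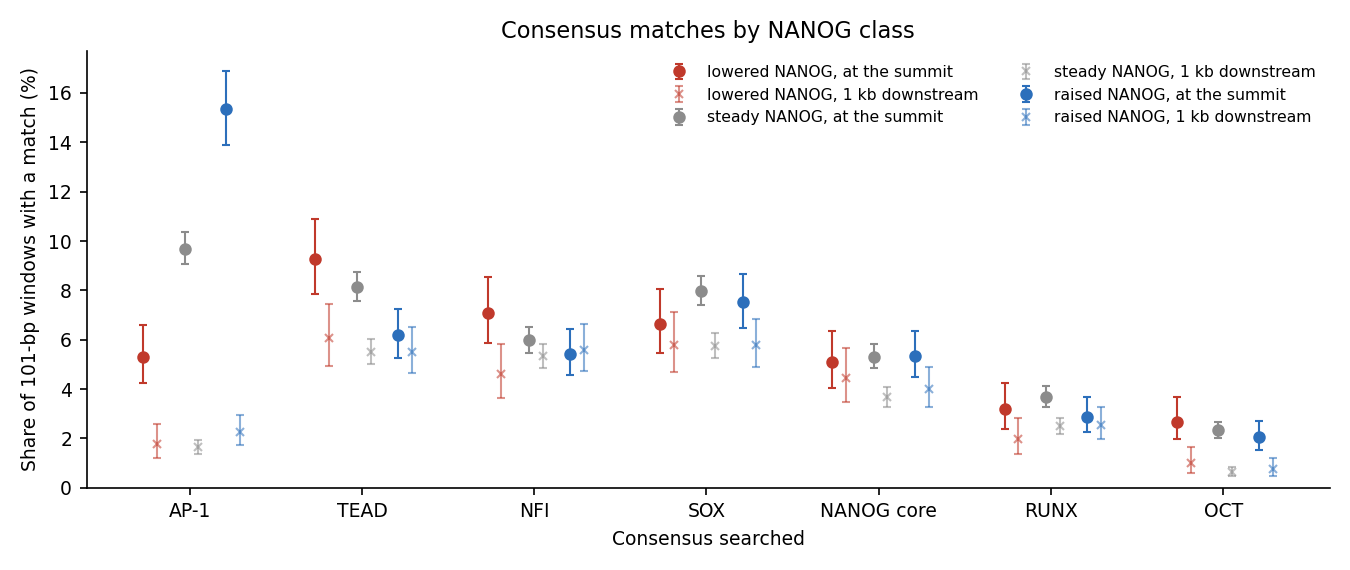
Share of 101-bp windows (vertical axis, percent) that hold a match to each consensus on either strand, by NANOG class, centred on the tallest NanogWT FLAG summit (circles) or 1 kb downstream (crosses), with 95% Wilson bars. Among the motifs drawn, AP-1 separates the classes most in percentage points, at 5.30% of regions with lowered and 15.3% with raised NANOG at the summit. The downstream AP-1 windows of the classes lie together. Rarer motifs such as CTCF and ETS are not drawn.

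Members with and without a match had similar FLAG heights and shares of lost H3K27ac for AP-1, OCT and TEAD. Members with an AP-1 match had median FLAG heights of 28 and 15 tags in NanogWT and NanogBiD, and those without had 29 and 15. The median BRG1 change was 0.15 with AP-1 and 0.00 without. H3K27ac was lost at 12 of 75 members with AP-1, 16.0% (9.40 to 25.9), and at 13.4% without. With the octamer it was lost at 5 of 38 members, 13.2% (5.75 to 27.3), and with TEAD at 15 of 131, 11.5% (7.06 to 18.0). With a SOX match it was lost at 5 of 94 members, 5.32% (2.29 to 11.9), against 14.2% without (12.4 to 16.2). This is 1 of many such comparisons and was not tested. Of the 14 motifs, CRE and CTCF had no member with a match and allowed no comparison. The median GC content of the windows was 44.6% at members and at steady regions and 46.5% at raised regions. Windows that were over 50% repeat sequence made up 8.98% of members (7.60 to 10.6) and 6.15% of steady regions (5.65 to 6.70).

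The members shown above for their octamer, AP-1 or TEAD match were then read in the other libraries, with Ctso as a further TEAD site. The taller Slc14a2 site also held a TEAD match. The Kcnq5 site, in an intron of this potassium channel gene, had FLAG heights of 54 tags in NanogWT and 26 in NanogBiD, BRG1 of 9 and 12 and H3K27ac of 9 and 19. The Ndst3 site, upstream of a heparan sulfate sulfotransferase gene, had FLAG of 54 and 32, BRG1 of 19 and 26 and H3K27ac of 21 and 30. At both of these sites BRG1 and H3K27ac were taller in NanogBiD, where NANOG was lower. The AP-1 sites at Lcmt1 and Dnajb9 had FLAG of 63 and 42 and of 58 and 34, with BRG1 of 26 and 35 and of 25 and 36, and H3K27ac of 40 and 38 and of 35 and 33. The TEAD site at Fbxo8 had FLAG of 67 and 42, BRG1 of 22 and 29 and H3K27ac of 18 and 15. The TEAD site at Ctso had FLAG of 62 and 41, BRG1 of 19 and 27 and H3K27ac of 24 and 26. H3K27ac thus differed by at most 3 tags at these 4 AP-1 and TEAD sites, in both directions. These members were chosen for their height and their match and do not stand for all members with the motif.

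The members lay farther from start sites than other distal common regions, though inside genes as often. Their NanogBiD FLAG summits were a median of 19.4 kb from the nearest start site, against 15 kb at steady and 13.1 kb at raised regions, and 293 members, 20.7% (18.7 to 22.9), were over 50 kb away, against 14.7% of steady regions. A protein-coding start site lay within 100 kb of 952 members (67.3%), and of 78.8% of steady regions. The tallest NanogWT summit lay in an intron at 736 members, in an exon at 53 and between genes at 625, close to the proportions at steady regions. FLAG summits of the arms were a median of 79 bp apart at members and 70.5 bp at steady regions. The share of distal common regions that were members ran from 9.83% on chromosome 14 to 16.5% on chromosome 16.

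Members tended to lie near each other. The nearest distal common region within 25 kb was itself a member for 77 of 438 members that had one, 17.6% (14.3 to 21.4). This compares with 10.5% for steady (9.43 to 11.7) and 6.90% for raised regions (5.31 to 8.92). The background of the rule, 12.1%, is over all distal common regions, also those without such a neighbour. FLAG peaks of NanogWT alone made up 40.5% (38.1 to 42.9) of the FLAG regions of a single arm within 25 kb of members, 34.0% near steady and 30.4% near raised regions. Such neighbours share local chromatin and are not independent of each other.

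The 952 members within 100 kb of a protein-coding start fell to 858 genes, of which 779 had 1 member, 69 had 2 and 10 had more. Trpm3 and Slc14a2 had 5 each and Myo18b 4. All 5 distal common regions nearest Trpm3 were members. Their FLAG heights were 68 tags in NanogWT and 45 in NanogBiD, 36 and 15, 29 and 17, 26 and 16, and 24 and 16 in order along the chromosome, while BRG1 was 24 and 33, 16 and 10, 8 and 14, 8 and 9, and 10 and 7. BRG1 was thus taller in NanogBiD at 3 of the 5 and shorter at 2. All 4 regions at Myo18b were members, with FLAG heights of 26 and 17, 36 and 11, 92 and 58, and 44 and 26 tags, and BRG1 was taller in NanogBiD at each, with 11 and 18, 11 and 15, 34 and 46, and 12 and 14. At Slc14a2 5 of 8 regions were members and 0 had raised NANOG.

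Genes of 11 lists were examined through the distal common regions nearest to them. Over all genes, 10.4% of such regions were members, and the interval of each of the 11 lists included this value. Near fibroblast matrix genes 5 of 33 regions were members, 15.2% (6.65 to 30.9), at Col5a1, Postn, Thbs2 and Timp3. Near mesenchymal identity factors it was 3 of 12, at Foxc1, Foxf2 and Osr1. Near TEAD and Hippo pathway genes it was 3 of 28, at Ccn2 and Fat4. Near TGF-beta and BMP pathway genes it was 3 of 35, at Tgfbr2 and Tgfbr3, and near Wnt and FGF pathway genes 3 of 34, at Fzd1, Tcf7l2 and Wnt5b. For the list of RUNX factors it was 2 of 12, both at Runx1t1, a corepressor gene that is not itself a RUNX factor. Contractile and actin genes had 0 of 18 (0 to 17.6). The list named for cell cycle barriers had 1 of 9, at Ccnd1, which encodes cyclin D1 and is not itself a barrier gene. Epithelial genes had 1 of 12, at Ezr, and pluripotency genes 1 of 7, which is the Nanog exon described above.

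The tallest member of each list was read in all libraries. Downstream of Postn (chr3:54475197-54481172), which encodes the matrix protein periostin, FLAG was 60 tags in NanogWT and 34 in NanogBiD, BRG1 18 and 25 and H3K27ac 23 and 32. In an intron of Tgfbr2 (chr9:116165200-116169191), a TGF-beta receptor gene, FLAG was 53 and 24, BRG1 11 in both and H3K27ac 23 and 21. In an intron of Fat4 (chr3:38911879-38914739), an atypical cadherin gene, FLAG was 48 and 30 and BRG1 25 and 22. In an intron of Bach2 (chr4:32530738-32533456), which encodes a repressor that binds AP-1-like sites, FLAG was 31 and 20, BRG1 20 and 12 and H3K27ac 20 and 13. At an exon of Runx1t1 (chr4:13874825-13876569), a corepressor gene, FLAG was 32 and 17 and BRG1 16 and 11. The sites near Ccnd1, Ezr and Wnt5b had FLAG of 14 and 8, 29 and 19, and 25 and 16 tags and BRG1 within 1 tag between arms. BRG1 was thus taller in NanogBiD at Postn and shorter by at least 1.5 times at Foxf2 and Bach2, while the difference at Runx1t1 was below that factor.

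The rule required BRG1 peaks in both arms, so distal sites that lost or gained BRG1 with lowered NANOG are not among the members. Of 3103 distal regions with FLAG in both arms and the same FLAG ratio, the 1414 members made up 45.6%, against 37.5% with BRG1 in both arms over all such regions. BRG1 had a peak in NanogWT only in 305, 9.83% (8.83 to 10.9), against 3.36% of the 31240 distal regions with FLAG in both arms, in NanogBiD only in 674, 21.7% (20.3 to 23.2), against 40.1%, and in neither arm in 710, 22.9% (21.4 to 24.4), against 19.1%. Even with lowered NANOG, sites with BRG1 in NanogBiD only outnumbered those with BRG1 in NanogWT only. The NanogBiD BRG1 list was also the longer one, with 53748 peaks against 30859.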

How the data were processed

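Peak and summit lists of 8 CUT&Tag libraries were analysed. Per the submitters' processing notes and the study's methods, the authors trimmed reads with Trim Galore 0.6.4, aligned them to mm10 with Bowtie2 2.4.5, filtered them with SAMtools 1.16.1, merged replicates and called peaks with MACS 1.4.2, keeping 1 duplicate. The deposited score of a peak is the caller's significance score, and the deposited signal of a summit is its tag pileup, a whole number not scaled to depth. Calls rise with depth, which is not known, and no control library was named.

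Peaks were joined to summits by name and merged when they overlapped or touched. A mark was present when a peak overlapped a region by at least 1 bp, and the tallest summit gave the height. Changes are log2 of NanogBiD over NanogWT. Start sites came from GENCODE for the same build. Motifs were searched on both strands within 50 bp of the NanogWT FLAG summit. Shares have Wilson 95% intervals, medians have order-statistic intervals, and both treat regions as independent.

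The members, gene lists and motifs were chosen with earlier results of these data known. Named regions were the 5 with the tallest NanogWT FLAG, largest FLAG ratio, lowest and highest BRG1 change and tallest lost H3K27ac, and the tallest near each list. Alternatives were a ratio of 2, a centred ratio, higher scores, equal list lengths, wider merging, a larger distance to start sites, close summits, taller sites and other motif windows. Classes were tested on 3000 simulated sites, with 0 wrong. Common regions on unplaced sequences (4) were left out. Python 3.11.15, pandas 2.3.3, statsmodels 0.14.6 and pysam 0.24.0 were used. The count for the list of AP-1 and related factors is not reported here.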

Additional observations from a re-analysis of the deposited data

How the results depend on the processing

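No paired analysis was possible because the libraries carry no replicate numbers, with 1 deposited per group after merging. Depth is not known and limits every comparison of heights between arms. With a FLAG ratio of at least 2 there were 364 members, with a median BRG1 change of -0.074, BRG1 lower by at least 1.5 times in 14.0%, H3K27ac lost in 18.4% and H3K4me1 lost in 24.5%. With scores of at least 100 there were 563, with BRG1 lower in 7.46% and H3K4me1 lost in 25%. With lists of equal length, 20000 peaks by score, there were 339, with a median BRG1 change of 0.25, BRG1 lower in 2.06% and H3K27ac and H3K4me1 each lost in 17.1%. Where FLAG summits of the arms lay within 100 bp there were 805 members. Where the mean FLAG height was at least 20 tags there were 893, with a median BRG1 change of 0.12, BRG1 lower in 6.83% and H3K27ac lost in 10.6%. Division of the BRG1 ratio by its median over distal common regions, chosen after the data were seen, gave -0.35 and 26%, and division by its median near start sites, also added later, changed neither value. Motif searches within 25 bp of the summit, in place of 50 bp, gave 2.76% for AP-1, 1.34% for the octamer and 4.31% for TEAD, and searches within 100 bp gave 10.6%, 4.10% and 17.3%, as fewer or more bases were searched. The cause of the other changes was not tested. In each of 8 alternative definitions of the classes, regions with lowered NANOG had the lowest median BRG1 change and the highest shares with lower BRG1, lost H3K27ac and lost H3K4me1 of the 3 classes. Steady regions lay between the others except in H3K4me1 with lists of equal length, lost at 10.9% of steady and 12.8% of raised regions.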
